A study of Rattus norvegicus with 6 samples.

Results

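Mitochondrially encoded subunits of 3 respiratory complexes were followed in rat liver through 6 gene IDs of the 43360 in the count tables. They are cytochrome b (Mt-cyb, ENSRNOG00000031766), subunits of cytochrome c oxidase (Mt-co1, ENSRNOG00000034234; Mt-co2, ENSRNOG00000030371; Mt-co3, ENSRNOG00000030700) and subunits of ATP synthase (Mt-atp6, ENSRNOG00000031979; Mt-atp8, ENSRNOG00000033299). The genes were taken by ID, and all 6 passed the filter on low counts. They were chosen by name with their shares of counts and group differences in all 3 comparisons already known, so their values and calls are given as a description and not as a test.

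Mitochondrial DNA is transcribed from each strand as a long RNA that is cut mostly at the tRNAs lying between the coding genes, and the resulting mRNAs carry short poly(A) tails. The proteins made from these mRNAs sit in the inner mitochondrial membrane and assemble there with many nuclear-encoded partners. Cytochrome b carries electrons within complex III, the oxidase subunits pass them on to oxygen in complex IV, and the ATP synthase subunits belong to the part of complex V that lets protons back through the membrane. Hepatocytes hold many mitochondria, and transcripts of mitochondrial DNA are usually among the most abundant in liver poly(A) RNA.

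Livers of male rats of the inbred Fischer-344 strain were sampled after 16 weeks. Controls were given 0.5% carboxymethyl cellulose, the oral vehicle, each day. The HCC group, named for hepatocellular carcinoma, was given weekly injections of the DNA-alkylating liver carcinogen DEN (diethylnitrosamine, 50 mg/kg) and then oral 2-AAF (2-acetylaminofluorene, 25 mg/kg), an aromatic amine carcinogen. The HCC/NAC group was given these carcinogens and a daily oral dose of N-acetylcysteine (NAC, 300 mg/kg), a cysteine donor for glutathione synthesis, and no group received NAC without carcinogens. The design lists 18 rats, and each group's 2 libraries were made from RNA pooled over 5 animals, so no value belongs to a single animal. The titles call the 2 libraries biological replicates, whereas with pooled RNA the spread between libraries may be technical. With 2 libraries against 2, an exact two-sided permutation test cannot give a p below 0.333, and none is reported. The liver and hepatocyte identity of the tissue was not checked against marker genes, because the tables carry IDs without symbols.

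Library totals lay between 33917707 and 37717373 counts, and 16898 IDs were tested. IDs with any count numbered 15646 and 19066 in control, 20317 and 20550 in HCC, and 17529 and 17684 in HCC/NAC. The control libraries thus differed in detected IDs at similar totals, 37541682 and 36256702 counts. Counting error was small: the 95% Wilson interval of a gene's share of a library was at most 1.31% of the share on either side, for Mt-atp8 in control replicate 2, and covers counting error only. Both control files share a name prefix that differs from the prefix of the other 4 files. What the prefix marks is not stated, so anything it stands for cannot be told apart from the carcinogen treatment. HCC and HCC/NAC carry the same prefix.

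The 6 genes together took a larger share of all counts in HCC than in control livers, and a larger one again in HCC/NAC livers. Their summed share was 8.20% and 7.98% in the control libraries, 12.9% and 13.1% in HCC, and 24.0% and 24.1% in HCC/NAC. The groups did not overlap, and the largest gap between 2 libraries of a group was 2.79% of the share, in control. The mean share was 1.61-fold higher in HCC than in control, 1.85-fold higher in HCC/NAC than in HCC, and 2.97-fold higher in HCC/NAC than in control. All other transcripts correspondingly took 91.8% and 92.0% of the counts in control and 76.0% and 75.9% in HCC/NAC. In bulk liver, a different number of cells or mitochondria and a different amount of RNA in each cannot be told apart.

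**Figure D1:**
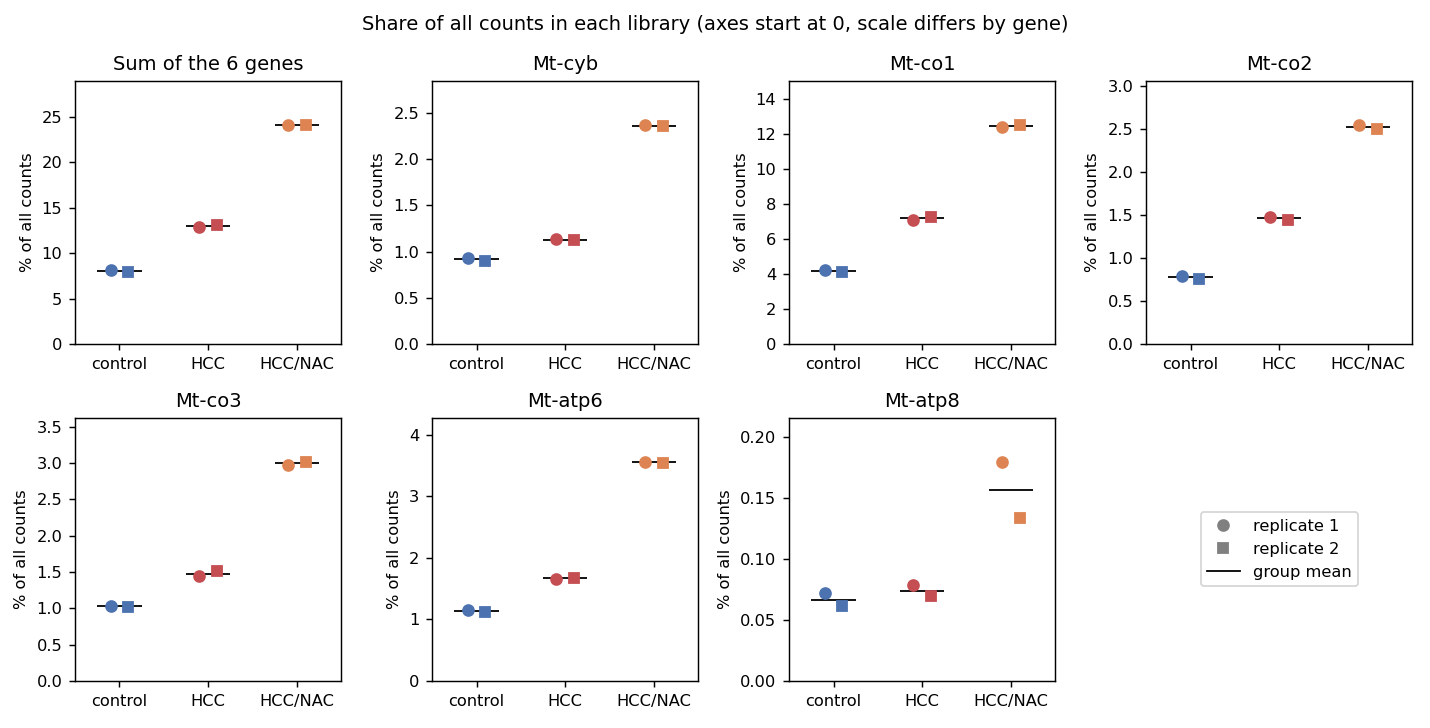
Percent of all counts in each library for the sum of the 6 genes and for each gene, by group; circles are replicate 1, squares replicate 2 and lines group means (n = 2). The summed share averaged 8.09% in controls, 13.0% in HCC livers and 24.1% in HCC/NAC livers, and for Mt-atp8 alone the control and HCC libraries overlap.

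The genes were also expressed as TMM-scaled CPM. CPM are counts per 1000000 counts of the library, and TMM corrects the library size so that most IDs show little difference on average. The TMM factors were 0.92 and 0.91 in control, 1.19 and 1.18 in HCC, and 0.92 in both HCC/NAC libraries. The scaling therefore lowers every HCC value against the other groups, whereas control and HCC/NAC are scaled alike. The summed level of control livers was 88227 ± 1268 CPM (SD, n = 2). HCC livers stood at 109371 ± 1946 CPM and HCC/NAC livers at 262091 ± 1445 CPM (SD, n = 2 each). On this scale HCC was 1.24-fold above control, and HCC/NAC was 2.40-fold above HCC and again 2.97-fold above control.

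Mt-cyb is the only subunit of complex III that mitochondrial DNA encodes. Its share of all counts was 0.931% and 0.903% in control, 1.14% and 1.12% in HCC, and 2.37% and 2.36% in HCC/NAC. On the share scale both HCC libraries thus lay above both controls. In TMM-scaled CPM the order of these groups turned, with 10118 and 9884 CPM in control against 9505 and 9495 CPM in HCC, while HCC/NAC reached 25764 and 25738 CPM. Among the 6 genes it was the only one whose HCC libraries were entirely above control on one scale and entirely below it on the other.

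Mt-co1 encodes the catalytic core of the oxidase, which holds the heme and copper site where oxygen is reduced. It took 4.22% and 4.11% of all counts in control, 7.12% and 7.26% in HCC, and 12.4% and 12.5% in HCC/NAC. Its libraries fell in 3 separate groups, and by number of counts it ranked 2 among all IDs in both control libraries and 1 in the other 4. Its TMM-scaled level was 45464 ± 606 CPM in controls, 60486 ± 1321 CPM with the carcinogens and 135757 ± 1589 CPM with carcinogens and NAC (SD, n = 2 each).

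Mt-co2, whose copper centre receives electrons from cytochrome c, took 0.794% and 0.762% of counts in control, 1.48% and 1.45% in HCC, and 2.55% and 2.51% in HCC/NAC. Mt-co3, a core subunit without a metal centre, took 1.03% and 1.02% in control, 1.44% and 1.51% in HCC, and 2.97% and 3.02% in HCC/NAC. Control was lowest and HCC/NAC highest for both genes, without overlap. The step from control to HCC was the larger one for Mt-co2, at 1.88-fold on the share scale against 1.44-fold for Mt-co3, and the step from HCC to HCC/NAC was the larger one for Mt-co3, at 2.03-fold against 1.73-fold.

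Mt-atp6 encodes the subunit that forms the proton path of ATP synthase beside the rotating ring. It took 1.15% and 1.11% of counts in control, 1.65% and 1.68% in HCC, and 3.56% and 3.54% in HCC/NAC, again in 3 separate groups. Mt-atp8, a small subunit of the stator, took 0.0717% and 0.0616% in control, 0.0781% and 0.0692% in HCC, and 0.179% and 0.134% in HCC/NAC. For Mt-atp8 the control and HCC libraries overlapped on the share scale and both HCC/NAC libraries lay above them. In TMM-scaled CPM both HCC libraries, at 654 and 585, lay below the control libraries at 779 and 674.

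The replicate spread of Mt-atp8 was far wider than that of the other genes. Replicate 1 exceeded replicate 2 by 16.4% of the share in controls, 12.9% in HCC livers and 34.3% in HCC/NAC livers, whereas the replicates of the other 5 genes lay within 4.66% of each other in every group. In mammals the Mt-atp8 and Mt-atp6 genes overlap on the mitochondrial genome and share 1 mRNA. How the counting treated reads over the overlap is not given, and likewise for reads that also match copies of mitochondrial DNA in the nuclear genome. Counts of both genes are therefore uncertain, those of Mt-atp8 most of all. The ratio of Mt-atp8 to Mt-atp6 counts was 0.0625 and 0.0553 in control, 0.0473 and 0.0412 in HCC, and 0.0504 and 0.0378 in HCC/NAC. What set this ratio was not tested.

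HCC against control compared pooled livers of rats given the carcinogens with those of vehicle controls. By the fit to all 6 libraries, oxidase and Mt-atp6 transcripts were higher in HCC, with Mt-co2 farthest from control, and Mt-cyb was slightly lower. An ID was called at an adjusted p under 0.05 in edgeR's quasi-likelihood test over all tested IDs. By this rule 4 of the 6 genes were called higher, beside 17.0% of all IDs, 1 was called lower, beside 17.8%, and Mt-atp8 had no call. Among the 104 IDs with a mean of at least 1000 CPM, 30.8% were called higher and 65.4% lower. This mean runs over all 6 libraries and so favours IDs that are high in HCC/NAC. Mt-atp8 reached it through HCC/NAC alone, with group means of 726 CPM in control, 620 CPM in HCC and 1705 CPM in HCC/NAC. Differences on the log2 scale were 0.54 ± 0.019 (SE) for Mt-co2 and 0.41 ± 0.015 for Mt-co1. They were 0.18 ± 0.017 for Mt-atp6 and 0.15 ± 0.024 for Mt-co3. Mt-cyb lay at -0.074 ± 0.017 and Mt-atp8 at -0.23 ± 0.11. Mt-atp8 and Mt-atp6, which share 1 mRNA, thus differed in sign, and the reason was not tested. The median of the 6 was 0.17, that of all 16898 IDs 0.051, and that of the other 98 IDs with a mean of at least 1000 CPM -0.64. Without control replicate 2 in the fit, the median of all IDs was 0.18.

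Mt-cyb had no call with upper-quartile scaling, with the library size taken without the 6 genes, with the stricter filter, with control and HCC alone in the fit, or without control replicate 2, where its log2 difference was -0.025. Mt-atp8 was called lower with no filter, with control and HCC alone in the fit, without HCC replicate 1 (-0.31), and without HCC/NAC replicate 1 or 2 (both -0.23). With library totals in place of scaling factors the median of all IDs moved up by 0.37 and all 6 genes lay above control, Mt-cyb by 0.30 and Mt-atp8 by 0.14. The call of Mt-cyb then turned from lower to higher, so that 5 genes were called higher and 0 lower, and Mt-atp8 again had no call. Over all IDs, 2876 were called higher and 3007 lower with TMM, against 5397 and 1536 with library totals. Relative to the median of all IDs, Mt-cyb lay at -0.13 with TMM and at -0.12 with library totals, and Mt-atp8 at -0.28 with both. A change of scaling shifts all IDs by nearly the same amount, so these positions had to agree and do not test the scaling.

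**Figure D2:**
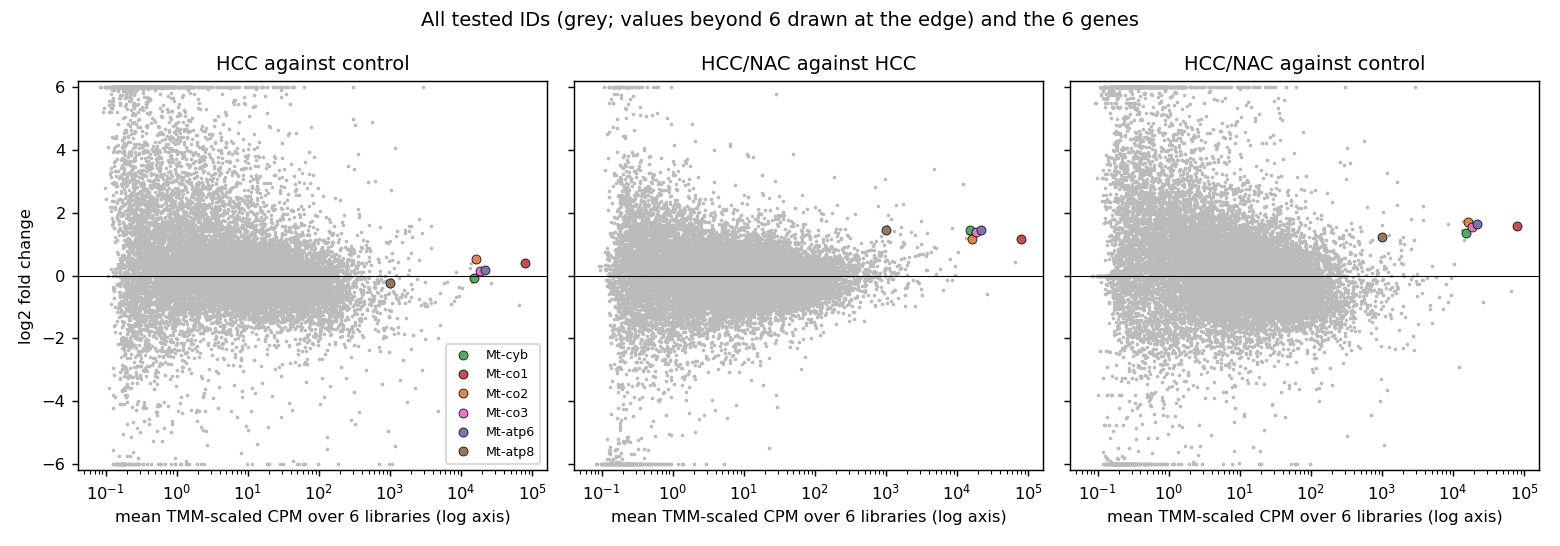
Log2 fold change of each tested ID (grey) against its mean TMM-scaled CPM over the 6 libraries, on a log axis, with the 6 genes in colour, for each comparison. The 6 genes lie between -0.23 and 0.54 in HCC against control, and between 1.16 and 1.70 in both comparisons of HCC/NAC.

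HCC/NAC against HCC compared pooled livers of rats given the carcinogens with and without NAC, and all 6 genes were called higher in HCC/NAC. This count of 6 stood beside 11.2% of all IDs called higher. It also stood beside 62.5% of the 104 IDs with a mean of at least 1000 CPM, the 6 included. That mean includes the HCC/NAC libraries, so the set is partly picked on the values compared here. The log2 difference was largest for Mt-atp6, at 1.47 ± 0.018 (SE), and for Mt-atp8, at 1.46 ± 0.11. Mt-cyb followed at 1.44 ± 0.017 and Mt-co3 at 1.39 ± 0.024. Mt-co1 and Mt-co2, the genes that stood highest in HCC against control, had the smallest differences here, 1.17 ± 0.015 and 1.16 ± 0.019. As folds, these values run from 2.24 for Mt-co2 to 2.76 for Mt-atp6.

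The median of the 6 genes was 1.42, beside -0.051 over all IDs and 0.32 over the other 98 abundant IDs. Of the 104 abundant IDs, 10 exceeded Mt-atp6, the highest of the 6, and 23 exceeded Mt-co2, the lowest. The rest of the 6 genes are among these 23. With library totals the median of all IDs moved down by 0.37 and the 6 genes lay between 0.79 for Mt-co2 and 1.09 for Mt-atp6, each still called higher. The split of all IDs went from 1899 higher and 2787 lower to 783 and 5811. The HCC libraries enter this comparison and the previous one with opposite sign, so the values of both comparisons are not independent.

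HCC/NAC against control showed how far the livers given carcinogens with NAC stood from vehicle controls. All 6 genes were called higher, beside 21.3% of all IDs and 39.4% of the 104 abundant IDs, the 6 included. Mt-co2 differed most, at 1.70 ± 0.019 (SE) on the log2 scale or 3.24-fold, and Mt-atp6 was next at 1.65 ± 0.018. Mt-co1 lay at 1.58 ± 0.016 and Mt-co3 at 1.54 ± 0.024. Mt-cyb, at 1.36 ± 0.017, and Mt-atp8, at 1.23 ± 0.11 or 2.35-fold, differed least. The median of the 6 was 1.56, beside 0.048 over all IDs and -0.24 over the other 98 abundant IDs. Control and HCC/NAC had nearly equal TMM factors, and with library totals the differences lay between 1.23 and 1.70. The control libraries are shared with the comparison of HCC with control.

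All 3 groups were separate where both HCC libraries lay above both controls and both HCC/NAC libraries above both HCC. In TMM-scaled CPM this order was found for 4 of the 6 genes. It stood beside 9.27% of all IDs and 15.4% of the 104 abundant IDs, the 6 included. On the share scale this order was found for 5 of the 6, beside 7.09% of all IDs. For the abundant IDs the figure on the share scale is not given here. Mt-cyb kept this order in shares and lost it in CPM, and Mt-atp8 lacked it on both scales.

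**Figure D3:**
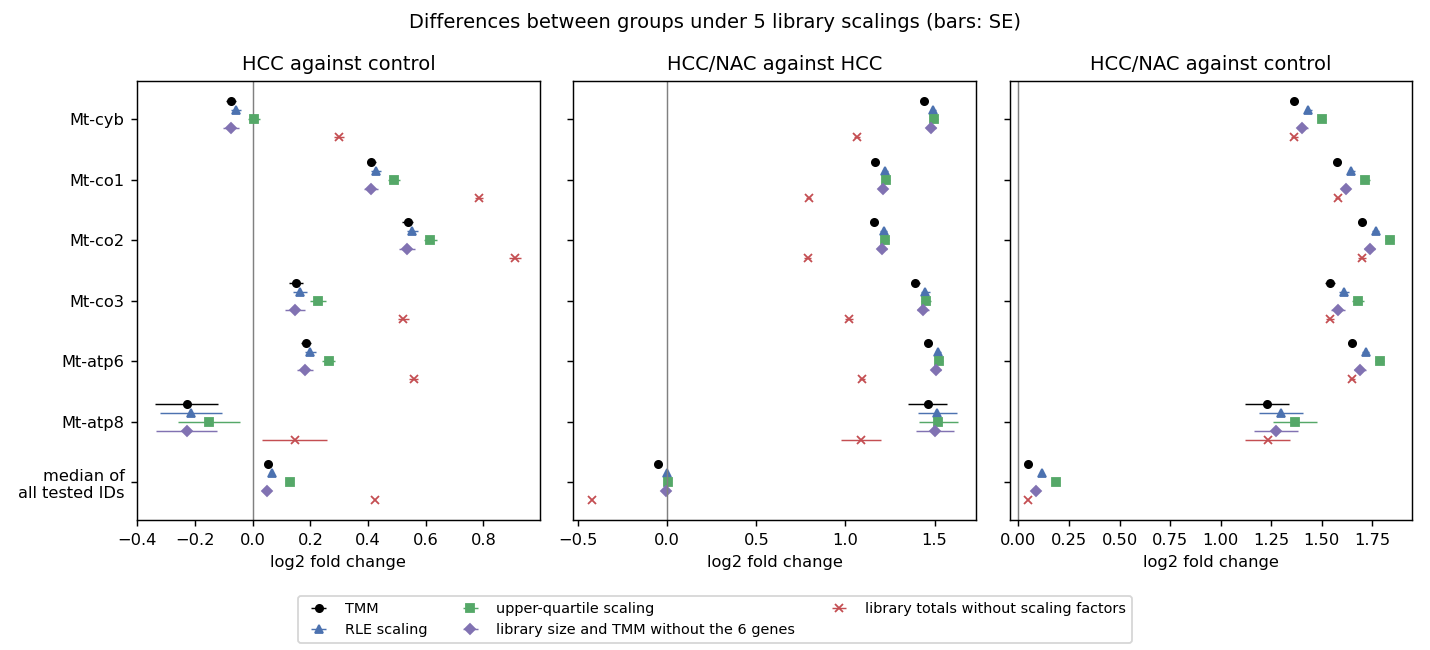
Log2 fold change of each gene, with its SE, in the 3 comparisons under 5 library scalings, and the median of all tested IDs in the lowest row. In both comparisons of HCC/NAC every point of the 6 genes lies above 0; in HCC against control Mt-cyb and Mt-atp8 lie on either side of 0 depending on the scaling.

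The make-up of the 6 genes' counts does not depend on library scaling, since each gene is set against the sum of the 6 in the same library. Read counts grow with transcript length, and lengths were not used here, so a share does not rank the genes by level and is compared only between libraries. Mt-co1 held 51.5% and 51.6% of the summed counts in control, 55.1% and 55.5% in HCC, and 51.6% and 52.0% in HCC/NAC. Its share was thus highest in HCC, while control and HCC/NAC differed by 0.265 percentage points, less than the 0.321 points of SD within HCC/NAC.

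Mt-cyb went the other way, with 11.4% and 11.3% of the sum in control, 8.80% and 8.57% in HCC, and 9.87% and 9.78% in HCC/NAC. Its 3 groups did not overlap, and HCC/NAC lay between HCC and control. Mt-co2 held 9.69% and 9.55% in control, 11.5% and 11.1% in HCC, and 10.6% and 10.4% in HCC/NAC, so that HCC/NAC again lay between the others. Mt-co3 held 12.6% and 12.8% in control, 11.2% and 11.6% in HCC, and 12.4% and 12.6% in HCC/NAC, with both HCC libraries below the rest. Mt-atp6 held 13.98% and 13.96% in the control libraries, 12.8% in both HCC libraries, and 14.8% and 14.7% in HCC/NAC. As a part of the sum it was lowest in HCC and, unlike Mt-co2, Mt-co3 and Mt-cyb, stood beyond control in HCC/NAC. The parts add up to 100%, so a larger part of Mt-co1 or Mt-co2 lowers the parts of the other genes. As shares of all counts and in CPM, Mt-co3 and Mt-atp6 were higher in HCC than in control. Mt-atp8 held 0.874% and 0.771% in control, 0.605% and 0.529% in HCC and 0.747% and 0.555% in HCC/NAC, where the treated groups overlapped.

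Ratios between genes in 1 library show the same shifts more directly. The ratio of Mt-co1 to Mt-cyb counts was 4.54 and 4.56 in control, 6.27 and 6.47 in HCC, and 5.23 and 5.32 in HCC/NAC. The ratio of Mt-atp6 to Mt-cyb counts was 1.23 in both control libraries, 1.45 and 1.49 in HCC, and 1.50 in both HCC/NAC libraries. The first ratio was highest in HCC and intermediate in HCC/NAC, whereas the second was higher than control in both treated groups, by nearly the same amount. The ratio of Mt-co2 to Mt-co3 was 0.768 and 0.745 in control, 1.03 and 0.956 in HCC and 0.857 and 0.829 in HCC/NAC. A ratio shows unequal change of its genes and not which of them changed.

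**Figure D4:**
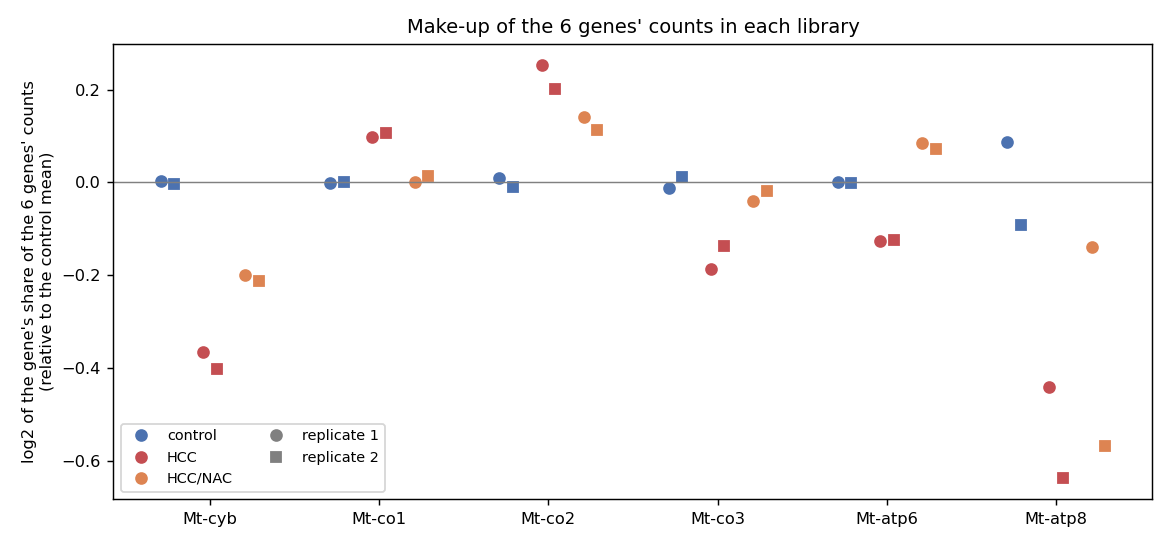
Each gene's share of the 6 genes' counts in each library, as log2 relative to the control mean, by group (circles replicate 1, squares replicate 2). Mt-co1 and Mt-co2 lie highest in HCC and Mt-cyb, Mt-co3 and Mt-atp6 lowest in HCC, while the 2 libraries of Mt-atp8 lie far apart in each group.

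Of the 10 IDs with the largest mean share of counts over the 6 libraries, 5 were from this set, all but Mt-atp8. This ranking includes the HCC/NAC libraries, where the genes are highest, and so favours them: by count Mt-co2 ranked 17 and 18 and Mt-cyb 13 and 14 in the control libraries, against rank 5 for Mt-co2 and rank 6 for Mt-cyb in both HCC/NAC libraries. These 5 genes held 8.02% ± 0.15 of a control library, 12.9% ± 0.14 of an HCC library and 23.9% ± 0.070 of an HCC/NAC library (SD, n = 2 each). The other 5 of the 10 IDs held 13.4% ± 0.040, 12.1% ± 0.062 and 13.7% ± 0.15 in the same order (SD, n = 2 each). The 10 IDs together held 25.0% of an HCC and 37.6% of an HCC/NAC library, and how this difference divides between the 5 genes and the others is partly set by the ranking.

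The IDs with profiles most like these genes were looked for among 1068 other IDs with a mean of at least 100 CPM, by the distance between log2 CPM profiles over the 6 libraries, each centred on its own mean. The nearest was ENSRNOG00000030644, at a distance of 0.181 log2 units from the mean profile of the 6 genes, followed by ENSRNOG00000029971 at 0.190. The 6 genes themselves lay 0.110 (Mt-co3) to 0.501 (Mt-atp8) from that mean. Each of them is part of the mean, which shortens its distance, so these values are not directly comparable with those of other IDs. In ENSRNOG00000030644 the level was 8281 and 8220 CPM in control, 9761 and 9848 in HCC, and 21941 and 23370 in HCC/NAC. In ENSRNOG00000029971 it was 5058 and 4789, 5574 and 5188, and 15181 and 15323 CPM. Neither ID is paired with a gene name in the tables used here. In all, 11 of the 1068 IDs were nearer to the mean profile than Mt-atp8.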

How the data were processed

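Poly(A) RNA of liver was measured in 6 libraries, 2 per group. The titles of 2 libraries name NAC alone and were read as the HCC/NAC group of the design text; the protocol calls the animals mice, the organism label rat. The deposited files hold unnormalized whole-number counts for Ensembl gene IDs, each column made from 1 STAR alignment per the file headers. FastQC, STAR, featureCounts and edgeR are named in the submitters' processing notes. The build, annotation, strand and read-pair settings and the handling of multiply matching reads are, in the sources used here, not given. Gene names and IDs of the 6 genes were given with the question; the reference table held 0 Ensembl IDs, so the planned lists of complex I genes, nuclear subunits and cell type markers were not analysed. The members and lists were chosen with earlier results of these data known. The text names all 6 genes and the 2 IDs nearest in profile.

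Counts were fitted with edgeR 4.0.16 in R 4.3.3: IDs kept by filterByExpr, TMM scaling, 1 quasi-likelihood model with a mean per group over 6 libraries, and Benjamini-Hochberg adjustment over all 16898 IDs. The SE was derived from the F statistic. The script was run on simulated counts with 200 IDs changed in HCC. This checked the code and not the choice of scaling. Alternatives were RLE, upper-quartile and no scaling factors, the library size without the 6 genes, DESeq2 1.42.0, no filter, a filter of at least 1 CPM in at least 4 libraries, a replicate block, the compared groups only, and each library left out. Depth was 33917707 to 37717373 counts per library. Reads are not molecules, since no molecular identifiers are mentioned.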

Additional observations from a re-analysis of the deposited data

How the results depend on the processing

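All 90 alternative values of the 6 genes in HCC/NAC against HCC, and all 90 in HCC/NAC against control, kept their direction and call, within 0.79 to 1.63 and 0.99 to 1.84 on the log2 scale. In HCC against control 77 of 90 did so, and the 13 others belonged to Mt-cyb and Mt-atp8. Mt-cyb reversed to 0.0044 with upper-quartile scaling and to 0.30 with library totals, and Mt-atp8 to 0.14 with library totals. The genes called lower numbered 0 with upper-quartile scaling, with library totals, without the 6 genes in the library size and with the stricter filter, 2 with no filter, and 0 to 2 when each library was left out, against 1 as reported. The replicate number as a block also gave 2, with Mt-atp8 added. Differences between replicates correlated by 0.0032 to 0.054 between groups over 7482 IDs, so no pairing by replicate number was seen across IDs. Such a correlation does not speak to a single gene. For Mt-atp8, replicate 1 was above replicate 2 in every group.

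Over all IDs, library totals gave 5397 higher and 1536 lower in HCC against control, and 783 higher and 5811 lower in HCC/NAC against HCC. Leaving out a library gave 1143 to 2135 higher IDs in that comparison, with 1143 without HCC replicate 1 and 1218 without HCC replicate 2. Relative to all other counts the summed ratio was 1.70 for HCC to control, 3.60 for HCC/NAC to control and 2.12 for HCC/NAC to HCC. Without the 100 most abundant other IDs in the total it was 1.42, 2.70 and 1.90. Without Mt-atp8 in the sum, Mt-co1 held 52.0% of it in controls, 55.6% in HCC livers and 52.1% in HCC/NAC livers. The cause of these shifts was not tested beyond the change of denominator or scaling itself.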
